A study of Mus musculus with 24 samples.

Results

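Potassium channel genes were followed through fetal ductus arteriosus (DA) and ascending aorta of mice with and without Prdm6 in the neural crest lineage. The members are the protein-coding genes whose mouse symbol begins with Kcn, together with Abcc8 and Abcc9, which encode the sulfonylurea receptors built into ATP-sensitive potassium channels. There are 96 of them among the 54752 genes of the count table, and 54 of the 96 had enough reads to be among the 16463 genes tested. They comprise 40 voltage-gated pore subunits (22 tested), 13 auxiliary subunits of voltage-gated channels (9 tested), 17 inward rectifier genes with the sulfonylurea receptors (10 tested), 12 genes of calcium- and sodium-activated channels (8 tested) and 14 2-pore channels (5 tested).

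Potassium channels let potassium leave the cell, which holds the membrane potential of smooth muscle at negative values and keeps voltage-gated calcium channels closed. In the DA, the fetal vessel that joins the pulmonary artery to the aorta, oxygen closes voltage-gated potassium channels after birth, and the calcium entry that follows helps to shut the vessel. ATP-sensitive channels, made of a Kir6 pore and a sulfonylurea receptor, relax vascular smooth muscle when they open, and drugs that open them widen the vessel.

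Total RNA was sequenced from DA and ascending aorta at E18.5, on a C57/Black6 background, with 5 libraries of Prdm6-deficient DA and 7 of control DA, and 5 of Prdm6-deficient and 6 of control aorta. The Prdm6-deficient embryos were Wnt1Cre;PRDM6f/f, so Cre under the control of Wnt1 sequences deletes floxed Prdm6 in neural crest cells and their descendants and leaves the gene in other cells of the vessel wall. Control embryos were PRDM6wt/f, except that control DA replicate 3 was PRDM6wt/wt, and that control DA replicate 2 and control aorta replicate 3, from 1 animal, were Wnt1Cre;PRDM6wt/wt. Embryos were pooled in pairs for Prdm6-deficient DA replicates 1 and 2, the other libraries come from single embryos, and replicate 4 of that group is not analysed here. Both tissues came from the same embryo for 6 control animals and for 2 Prdm6-deficient ones (DA replicate 5 with aorta replicate 3, and DA replicate 7 with aorta replicate 5), and the embryos pooled in Prdm6-deficient DA replicate 2 gave Prdm6-deficient aorta replicates 1 and 2. By their numbers the animals fall into a first and a second series, which hold 3 and 2 of the Prdm6-deficient DA libraries, 2 and 5 of control DA, 2 and 3 of Prdm6-deficient aorta and 1 and 5 of control aorta. Total counts ranged from 15163974 to 22610547 per library, with a median of 19985259, so that the floor for detection, set at 3 counts, lies at 0.133 to 0.198 CPM (counts in proportion to library size) before TMM scaling. Such floors cover counting error only.

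Values of Prdm6-deficient libraries are given in the order of their replicates (1, 2, 5, 6 and 7 in the DA, 1 to 5 in the aorta). Those of control groups are given by the lowest, the highest and the median library. CPM are scaled between libraries by the TMM method and compare a gene between libraries, while levels of different genes are compared only as CPM per kilobase of exon.

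Prdm6 itself was at 78.1, 70.8, 77.7, 78.5 and 58.6 CPM in the Prdm6-deficient DA libraries and 85 to 128 CPM (median 104) in control DA, and at 69.6, 70, 68.5, 81.2 and 61.9 CPM in Prdm6-deficient aorta and 95.6 to 136 CPM (median 108) in control aorta. Every Prdm6-deficient library lay below every control library of its tissue, and Prdm6 reads remained in all of them. Counts are given per gene, so they do not show which part of Prdm6 or which cells these reads come from. The log2 fold change was -0.57 (SE 0.108, adjusted p = 5.53e-04) in the DA and -0.69 (SE 0.112, adjusted p = 1.70e-04) in the aorta.

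Smooth muscle marker genes were abundant in all 4 groups. The 8 genes of that list (Myh11, Acta2, Tagln, Cnn1, Mylk, Smtn, Lmod1 and Actg2) summed to 11680, 10180, 12420, 11320 and 10320 CPM in the Prdm6-deficient DA libraries, against 14660 to 25800 CPM (median 19110) in control DA, with no overlap. Their sums were 9767 to 11500 CPM (median 10760) in Prdm6-deficient aorta and 8784 to 12490 CPM (median 10980) in control aorta. Of the 8 genes, 7 exceeded control aorta in control DA by the test described with the first comparison, 7 were lower in Prdm6-deficient DA than in control DA, and 1, Mylk, was higher in Prdm6-deficient aorta than in control aorta.

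Markers of other cells also differed between the groups. In a list of 8 pericyte genes, led by Rgs5, the sum was 4257 to 8171 CPM in Prdm6-deficient DA, 5992 to 11140 in control DA, 5728 to 6461 in Prdm6-deficient aorta and 2020 to 3325 in control aorta. Rgs5 alone averaged 5307, 7853, 5290 and 1623 CPM in these groups, in the same order. Ndufa4l2, Notch3 and Pdgfrb of this list were higher in Prdm6-deficient DA than in control DA, and Rgs5 was higher in Prdm6-deficient aorta than in control aorta, by a log2 fold change of 1.70 (SE 0.199, adjusted p = 1.43e-06). Melanocyte genes (6, led by Dct) summed to 32.3 to 229 CPM in control DA and to 2.44 to 4.96 CPM in Prdm6-deficient DA, where 3 of the 6 had 3 counts or fewer in every library. Of 8 neuron genes, 5 were tested and 1, Elavl4, was higher in both Prdm6-deficient groups than in their controls. That list, led by Stmn2 in the DA, summed to 19.1 to 47.8 CPM in Prdm6-deficient DA and 8.06 to 25.9 CPM in control DA, and in the aorta to 41.9 to 84.4 CPM without Prdm6, where Elavl4 led it, and 20.2 to 34.6 CPM in controls. The 8 genes of Schwann cells and glia had a median sum of 83.9 CPM in Prdm6-deficient DA and of 31.4 CPM in control DA, and 1 of them, Fabp7, was higher in Prdm6-deficient DA. Other lists with called genes were those of endothelium (8 genes, led by Pecam1, with 1, Cldn5, higher in Prdm6-deficient DA and 3, Emcn, Tek and Tie1, higher in Prdm6-deficient aorta), fibroblasts (6 genes, with 1, Lum, higher in both Prdm6-deficient groups and 1, Col14a1, lower in Prdm6-deficient aorta) and cartilage (5 genes, 4 tested, with Acan higher and Sox9 lower in Prdm6-deficient DA and Sox9 lower in Prdm6-deficient aorta). Of 8 macrophage genes, 1, C1qc, was lower in Prdm6-deficient aorta, where the list summed to 71.3 to 107.9 CPM against 124 to 225 CPM in control aorta, and of 4 brown fat genes, 1, Pparg, was lower in Prdm6-deficient DA.

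Some libraries stood apart in these lists. The 8 cardiomyocyte genes summed to 1166 CPM in control DA replicate 1, against a median of 118 CPM in its group. The 5 erythroid genes summed to 137600 CPM in Prdm6-deficient DA replicate 1 and 136500 CPM in control aorta replicate 4, against group medians of 35790 and 41480 CPM. The glial list summed to 183 CPM in control DA replicate 7, and the melanocyte list to 14.8 CPM in control aorta replicate 4. In bulk tissue such as this, fewer cells of a type and less RNA per cell cannot be told apart, and the part of cell mixture in the results that follow was not tested.

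Inward rectifier genes gave the highest summed level of the 5 classes in control DA, 159 ± 41.3 CPM per kilobase (SD, n = 7), against 65.4 ± 9.31 (n = 6) in control aorta. In Prdm6-deficient DA their sum was 39.6 ± 4.48 (n = 5), and no library overlapped with control DA, while in Prdm6-deficient aorta it was 69.3 ± 5.45 (n = 5). The 2-pore channels were also highest in control DA, with 33.5 ± 6.54 in control DA, 12.8 ± 3.0 in Prdm6-deficient DA, 14.4 ± 1.47 in control aorta and 12.8 ± 2.84 CPM per kilobase in Prdm6-deficient aorta. Voltage-gated pore subunits ran the other way between genotypes, with 23.1 ± 3.11 in control DA and 40.1 ± 5.3 in Prdm6-deficient DA, and 29.8 ± 2.9 in control aorta and 43.5 ± 2.98 CPM per kilobase in Prdm6-deficient aorta, without overlap in either tissue. Calcium- and sodium-activated channel genes summed to 23.2 ± 4.35, 17.7 ± 1.07, 12.1 ± 1.79 and 14.1 ± 1.7 CPM per kilobase in the same order of groups. Auxiliary subunits lay between 51.2 ± 3.71 in control DA and 62.4 ± 5.91 in Prdm6-deficient aorta. These sums were not tested.

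**Figure D1:**
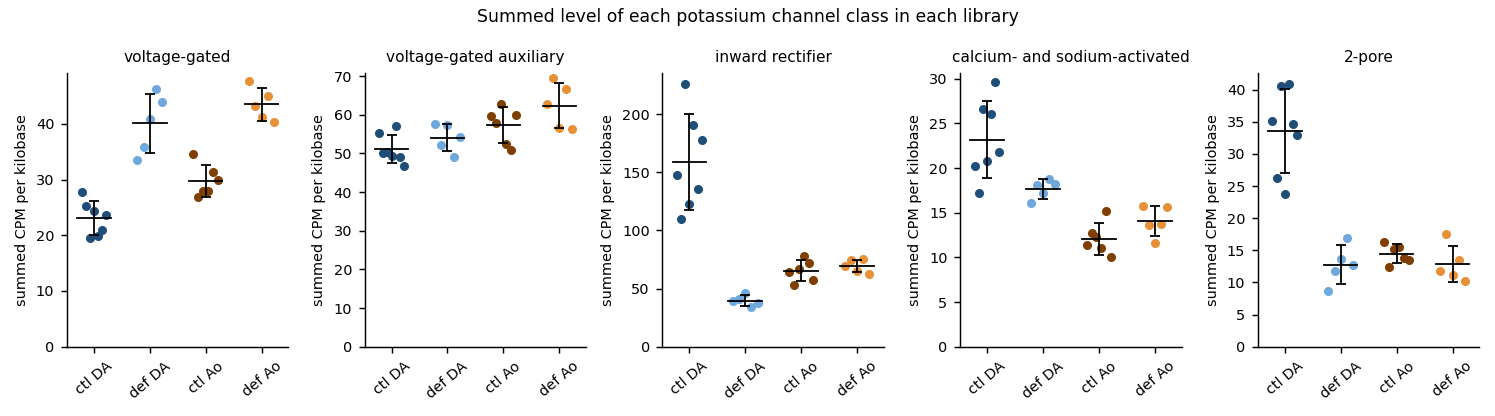
Summed level of each class in each library, in CPM per kilobase of exon; points are libraries of control (ctl) and Prdm6-deficient (def) DA and aorta (Ao), and bars the mean ± SD. In the inward rectifier and 2-pore panels the control DA libraries lie above those of the 3 other groups, with lowest sums of 110.2 and 23.8.

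Within the classes, single genes carried much of the level. Kcnj8 made up 80.6% of the inward rectifier sum in control DA, 58.1% in Prdm6-deficient DA, 51.5% in control aorta and 72.9% in Prdm6-deficient aorta. Kcne4 led the auxiliary subunits in all 4 groups, with 67.6% of their sum in control DA. Kcnmb1 led the calcium- and sodium-activated class, with 68.6% in control DA, and Kcna5 led the voltage-gated pores, with 31.4% in control DA and 51.2% in Prdm6-deficient DA. Among 2-pore channels the leading gene differed, being Kcnk1 in control DA (44.3%), Kcnk3 in Prdm6-deficient DA (35.4%) and Kcnk6 in both aorta groups (39.6% in controls and 42.3% without Prdm6). By mean level 9 members passed 20 CPM in control DA, and 27 tested members stayed under 5 CPM in every group.

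**Figure D2:**
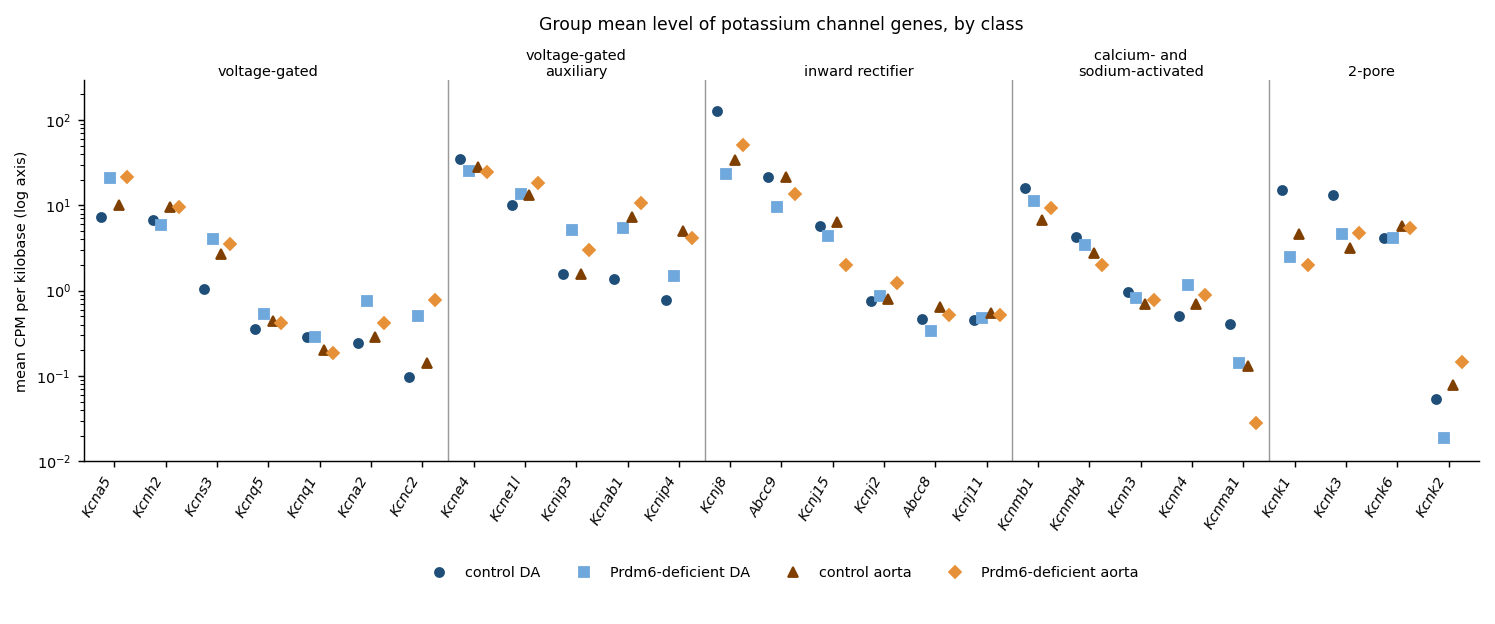
Mean level of 27 potassium channel genes in each group, in CPM per kilobase of exon on a log axis, ordered by class. Kcnj8 in control DA is the highest point, at 129 CPM per kilobase, and Kcnk2 in Prdm6-deficient DA the lowest.

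In control embryos, the comparison of DA with aorta asks which channel genes set these neighbouring vessels apart. Kcnj8, the Kir6.1 pore of ATP-sensitive channels, averaged 328 ± 94.6 CPM (SD, n = 7) in the DA and 87.4 ± 26.1 CPM (n = 6) in the aorta. The 2-pore genes Kcnk1 and Kcnk3 were also higher in the DA, as was Kcnmb1, which encodes a beta subunit of the large-conductance calcium-activated channel. The auxiliary genes Kcnab1 and Kcnip4 and the modifier subunit Kcns3 were lower there, Kcnab1 at 11.8 ± 9.11 CPM in the DA and 62 ± 9.22 CPM in the aorta. A gene was called when its adjusted p in edgeR's quasi-likelihood test was below 0.01, with Benjamini-Hochberg adjustment over the 16463 genes tested, and its log2 fold change was beyond 0.5 either way. By this rule 5 of the 54 tested members were higher in the DA (9.26%, against 3.16% of all genes tested) and 3 were lower (5.56%, against 2.19%). Their median log2 fold change was -0.04, against -0.00 for all genes tested. Within the second series the log2 fold change was 1.88 for Kcnj8, 1.65 for Kcnk1, 2.16 for Kcnk3, 1.26 for Kcnmb1, -2.23 for Kcnab1 and -1.21 for Kcns3. With the animal as a block over the 6 control animals that gave both tissues, 7 members were called and Kcns3 was not (adjusted p = 0.0224). In that fit 674 genes were called in all, against 882 with all libraries and no block. The labels give less total RNA from the DA than from the aorta, and this cannot be told apart from the tissue.

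Without Prdm6, potassium channel genes of the DA moved in both directions, and this comparison shares its control DA libraries with the first. Kcnj8 averaged 58.9 ± 10.5 CPM (n = 5) in Prdm6-deficient DA, and Kcnk1 5.55 ± 1.87 against 33.6 ± 9.57 CPM in control DA. Abcc9, the sulfonylurea receptor that pairs with Kir6.1 in vascular muscle, and Kcnk3 fell as well. The voltage-gated pore genes Kcna2, Kcna5, Kcnc2 and Kcns3 and the auxiliary genes Kcnab1 and Kcnip3 rose, Kcna5 from 20.9 ± 7.48 to 59.1 ± 12 CPM. In all, 6 of the 54 tested members were called higher (11.1%, against 2.61% of all genes tested) and 4 lower (7.41%, against 2.82%). Their median log2 fold change was 0.10, against 0.01 for all genes tested. It was 0.47 for the 22 voltage-gated pore genes (14 above 0) and 0.43 for the 9 auxiliary genes (8 above 0). The median was -0.43 for the 10 inward rectifier genes (4 above 0) and -0.42 for the 8 calcium- and sodium-activated genes (2 above 0). For the 5 2-pore genes it was -1.48 (2 above 0). Of all 16463 genes tested, 8481 were above 0. Within the first series 1 member was called, Kcnj8, and within the second 4, Abcc9, Kcnj8, Kcnk1 and Kcnk3, with fewer libraries in each.

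In the aorta, loss of Prdm6 was accompanied by a higher level of Kcna5, 61.2 ± 9.32 CPM (n = 5) against 28.8 ± 6.13 CPM (n = 6) in control aorta. Abcc9 and Kcnk1 were lower, as were Kcnj15, an inward rectifier, and Kcnma1, the pore of the large-conductance calcium-activated channel. Kcnj15 averaged 12.6 ± 7.52 CPM without Prdm6 and 40.2 ± 10.1 CPM in controls. Of the 54 tested members, 1 was called higher (1.85%, against 1.63% of all genes tested) and 4 lower (7.41%, against 0.826%), and the median log2 fold change was 0.08, against -0.00 for all genes. The number called fell to 3 without Prdm6-deficient aorta replicate 1, 2 or 3 and without control aorta replicate 2, 3 or 5, and it was 8 with only the aorta libraries in the fit. The first series holds 1 control aorta library, and no fit within it was run for this comparison or the first.

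Between the 2 tissues without Prdm6, Kcnj8 was the member called with all libraries, at 58.9 ± 10.5 CPM in the DA and 129 ± 9.98 CPM in the aorta. The direction was opposite to that in control embryos, where the DA had the higher level. This 1 lower member is 1.85% of the 54 tested, against 0.115% of all genes tested that were lower in the DA, and 0.152% of all genes were higher there. For the members the median was 0.04 on the log2 scale. Without Prdm6-deficient DA replicate 1, 6 or 7 or Prdm6-deficient aorta replicate 2 Kcnj8 lost its call in edgeR's test, as it did with the replicate block (adjusted p = 0.0216), DESeq2 called 3 members with all libraries, and without control DA replicate 6 edgeR called 2. The replicate block, here and below, groups libraries with the same replicate number, though these numbers pair nothing in the labels. With the animal as a block over the 9 animals or pools that gave both tissues (19 libraries), a fit chosen after the data were seen, Kcnj8 was not called (-0.99, adjusted p = 0.0746).

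A test of the difference between the effects in DA and aorta asks which genes responded to the loss of Prdm6 unequally in the 2 vessels. Kcnj8, Kcnk1, Kcnk3 and Kcnmb1 had a more negative effect in the DA than in the aorta. So did 6 of the 8 smooth muscle genes (Actg2, Cnn1, Myh11, Mylk, Smtn and Tagln; median of the list -1.21) and Rgs5, while Ndufa4l2 and Notch3 of the pericyte list differed the other way, and the part of these cells was not tested. The 4 members are 7.41% of the 54 tested members, against 1.66% of all genes tested with a difference in that direction, and 0.917% of all genes had one in the other direction. The median difference of the members was 0.09 on the log2 scale. Without Prdm6-deficient DA replicate 1, Prdm6-deficient aorta replicate 5, control DA replicate 5 or control aorta replicate 3 or 6, 2 members were called, and 2 were called without the pooled libraries. With the animal as a block, as in the comparison before, Kcnj8 kept its call, while Kcnk1 (-1.15, adjusted p = 0.0995), Kcnk3 (-1.97, 0.0247) and Kcnmb1 (-0.96, 0.0373) did not.

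**Figure D3:**
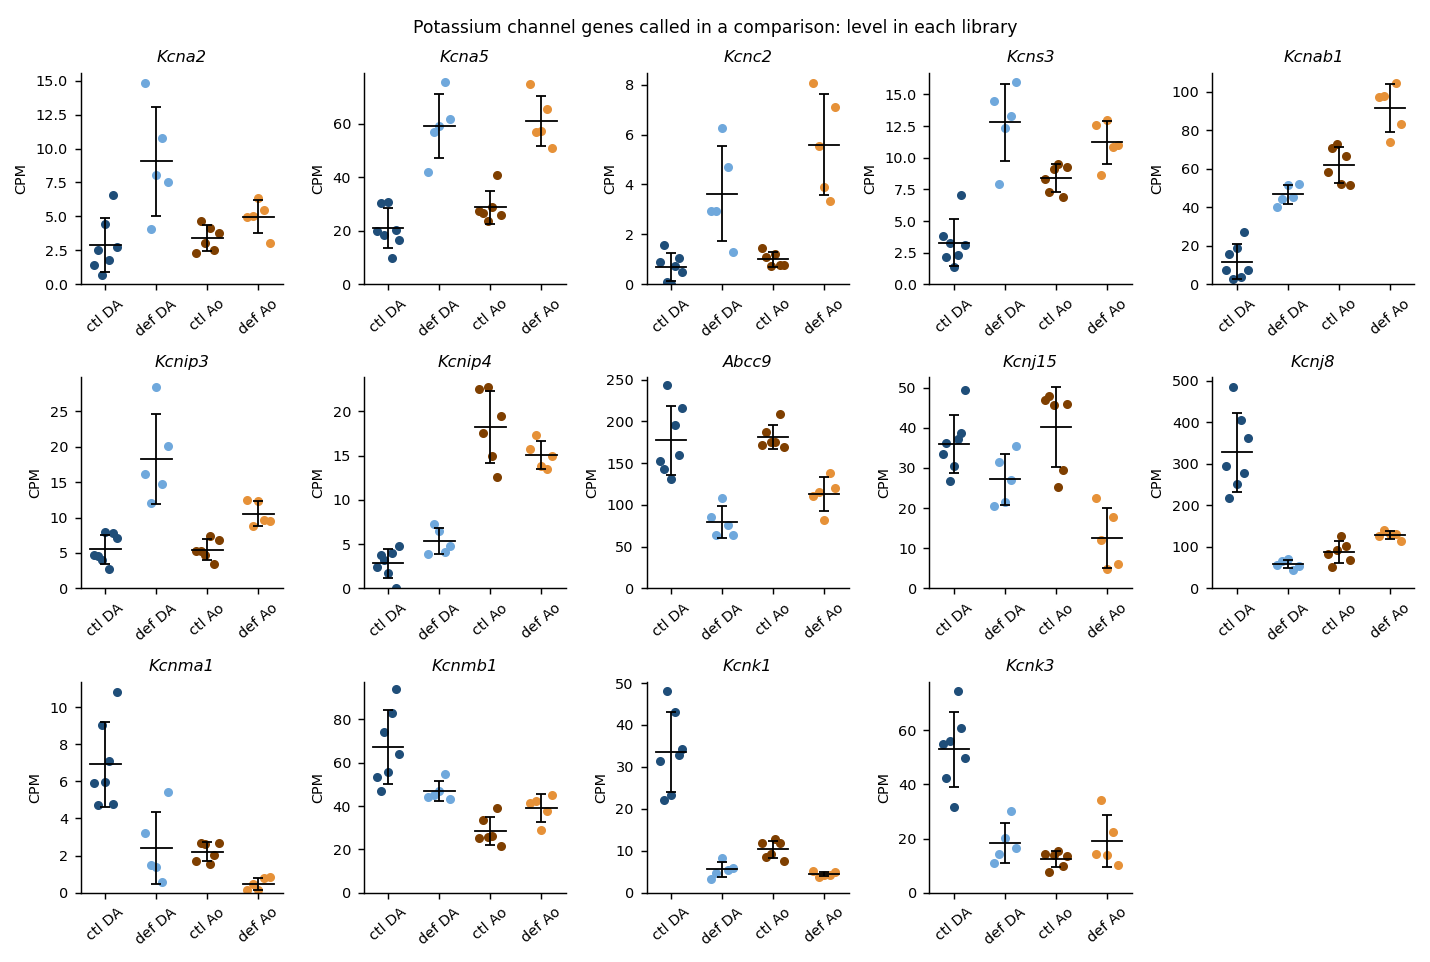
Level in CPM of 14 potassium channel genes called in at least 1 comparison; points are libraries of control (ctl) and Prdm6-deficient (def) DA and aorta (Ao), and bars the mean ± SD. Kcnj8 is lowest in Prdm6-deficient DA, at 44.9 to 71.5 CPM, and Kcna5 lies higher in both Prdm6-deficient groups than in their controls.

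**Figure D4:**
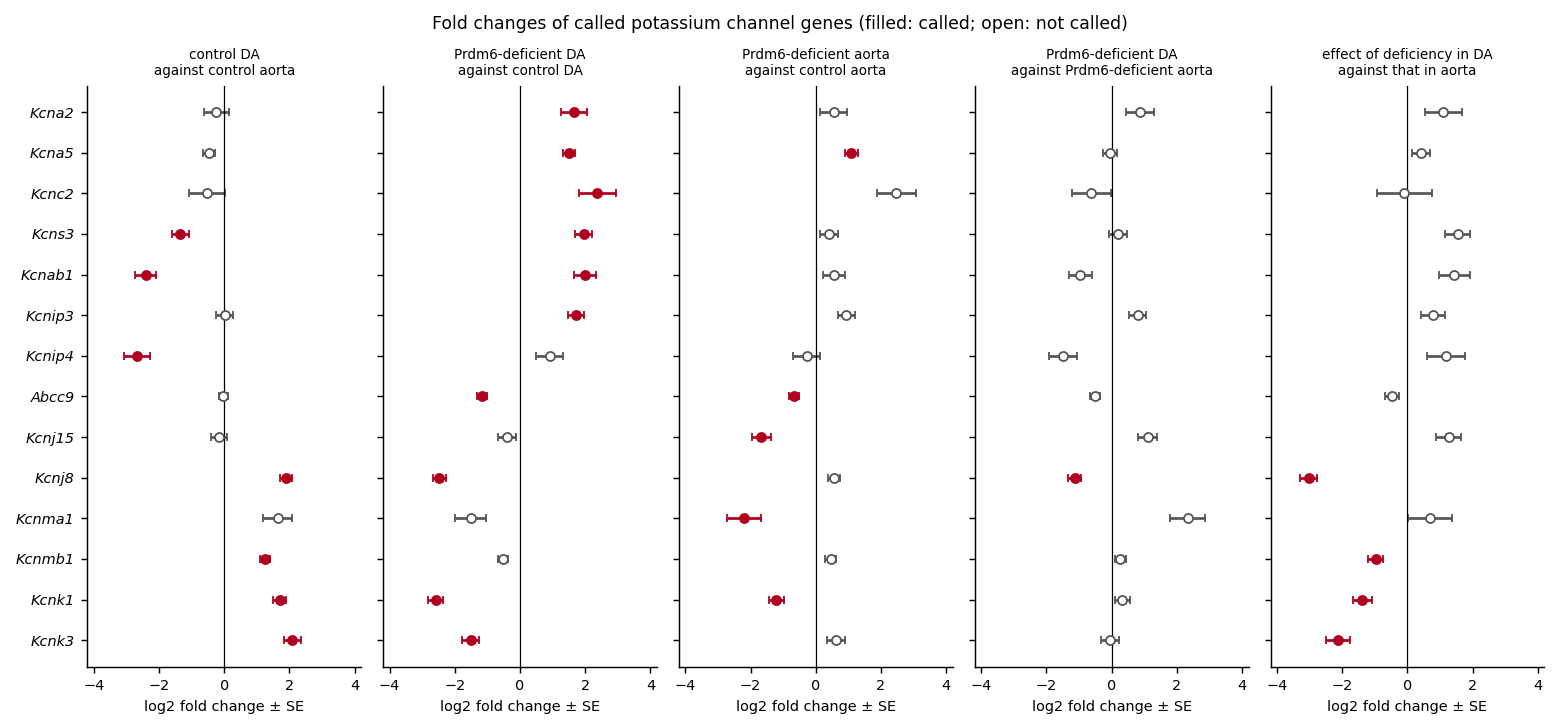
Log2 fold change ± SE of the same 14 genes in the 4 comparisons and for the difference between the effects in DA and aorta, with called values filled. The first panel shares the control DA libraries with the second and the control aorta libraries with the third.

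Of the inward rectifiers, Kcnj8 (chr6:142564837-142571614, minus strand of mm10) and Abcc9 (chr6:142587862-142702315, minus strand) encode the pore and the receptor of the vascular ATP-sensitive channel and lie 16248 bases apart. Their promoters are shown because the pair lies side by side and both genes fell in Prdm6-deficient DA. They are RefSeq sequences of GRCm38.p6, 250 bases before to 50 after the start, found for 70 of the 96 members. In these windows 4 motifs were searched on both strands: the CArG box, which the factor SRF binds, the AP-1 motif TGANTCA, the TEAD motif GGAATG and the TATA motif TATAAA. Among all 32851 promoters of the table, 1.63% hold a CArG box, 7.81% the AP-1 motif, 14.7% the TEAD motif and 13.6% the TATA motif. Of the 95 promoters of members, 0 hold the first, 4 the second, 15 the third and 5 the last. Capitals mark the match in Abcc9, to the TEAD motif at position -219 from the start, and Kcnj8 (chr6:142571565-142571864, minus strand) holds none of the 4. Abcc9 covers chr6:142702225-142702524, minus strand.
Kcnj8: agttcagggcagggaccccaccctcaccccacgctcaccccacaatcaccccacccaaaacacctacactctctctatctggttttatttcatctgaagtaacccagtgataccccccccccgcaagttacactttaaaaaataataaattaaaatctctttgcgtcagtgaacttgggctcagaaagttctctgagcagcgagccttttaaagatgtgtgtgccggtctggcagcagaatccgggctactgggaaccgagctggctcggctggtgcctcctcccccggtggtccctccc
Abcc9: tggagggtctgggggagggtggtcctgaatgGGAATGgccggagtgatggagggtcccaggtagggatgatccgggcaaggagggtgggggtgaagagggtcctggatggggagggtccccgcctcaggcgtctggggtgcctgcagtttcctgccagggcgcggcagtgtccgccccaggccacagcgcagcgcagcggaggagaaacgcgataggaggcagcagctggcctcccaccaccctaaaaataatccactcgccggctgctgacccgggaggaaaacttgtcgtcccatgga

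Kcnj8 was at 57.5, 66.7, 71.5, 44.9 and 54.2 CPM in the Prdm6-deficient DA libraries and 219 to 486 CPM (median 294) in control DA. Aorta levels were 127, 140.4, 132, 131 and 113 CPM in Prdm6-deficient aorta and 51.8 to 127 CPM (median 87.8) in control aorta. All Prdm6-deficient DA libraries lay below all control DA libraries, and all control DA libraries lay above all control aorta libraries. Between the control groups the DA was 3.75-fold above the aorta (log2 fold change 1.91 (SE 0.179, adjusted p = 1.85e-08)). Loss of Prdm6 left 18% of the control level in the DA, a log2 fold change of -2.47 (SE 0.197, adjusted p = 2.03e-09), which was -2.60 within the first and -2.41 within the second series. In the aorta the value without Prdm6 was 0.56 (SE 0.186, adjusted p = 0.0916) and was not called. There control aorta replicate 4, at 127 CPM, lay within the range of the Prdm6-deficient libraries. The other control aorta libraries, at 101 CPM or less, lay below all of them. The effects in DA and aorta differed by -3.03 (SE 0.266, adjusted p = 2.21e-07) on the log2 scale. Without Prdm6 the DA stood below the aorta, with no overlap and a log2 fold change of -1.13 (SE 0.198, adjusted p = 0.00357), with -1.19 in the first and -1.07 in the second series. That last call was lost without Prdm6-deficient DA replicate 1 (adjusted p = 0.0118), 6 (0.0137) or 7 (0.0125), without Prdm6-deficient aorta replicate 2 (0.012), without the pooled libraries (0.0358), with the replicate block (0.0216), with the animal as a block (0.0746) and within the first series (0.0894).

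Abcc9 was at 85.8, 63.7, 109, 75.6 and 63.8 CPM in the Prdm6-deficient DA libraries and 131 to 244 CPM (median 159.6) in control DA. The aorta had 111, 115, 82.2, 138 and 119.9 CPM in Prdm6-deficient aorta and 169 to 208 CPM (median 175) in control aorta. It was lower in every Prdm6-deficient library than in every control library of the same tissue, while control DA and control aorta overlapped (log2 fold change -0.03 (SE 0.138, adjusted p = 0.943)). The log2 fold change without Prdm6 was -1.16 (SE 0.151, adjusted p = 3.52e-06) in the DA, with -1.10 in the first and -1.44 in the second series, and -0.68 (SE 0.152, adjusted p = 0.00586) in the aorta, with -0.67 in the second series. The difference between these effects, -0.48 (SE 0.21, adjusted p = 0.243), was not called. Prdm6-deficient DA against Prdm6-deficient aorta gave -0.51 (SE 0.158, adjusted p = 0.156), which was called within the second series (-0.85, adjusted p = 0.00303). In the aorta the call was lost without Prdm6-deficient aorta replicate 1 (adjusted p = 0.0172), 2 (0.0153), 3 (0.0278) or 5 (0.0122) and without control aorta replicate 2 (0.0132), 3 (0.0102) or 5 (0.0157), and with the replicate block (0.0115). Per kilobase, the ratio of Kcnj8 to Abcc9 had a median of 6.28 in control DA, 2.2 in Prdm6-deficient DA, 1.59 in control aorta and 3.76 in Prdm6-deficient aorta. In control DA it ran from 5.01 to 6.82, clear of the 1.95 to 3.44 of the DA without Prdm6, and 0.905 to 2.37 in control aorta did not overlap with 3.1 to 5.26 in Prdm6-deficient aorta. In Prdm6-deficient DA 7 of 8 smooth muscle genes and 4 of 6 melanocyte genes fell, as Kcnj8 and Abcc9 did. Between the control tissues Rgs5 of the pericyte list was, like Kcnj8, higher in the DA, while Ndufa4l2 and Notch3 of that list were lower. In Prdm6-deficient aorta, where the ratio was higher than in control aorta, Rgs5 was higher as well. There the pericyte list summed to 5728 to 6461 CPM, against 2020 to 3325 CPM in control aorta. Most of that sum was Rgs5 itself, with 5290 of a mean of 6132 CPM in Prdm6-deficient aorta and 1623 of 2372 CPM in control aorta. Of the 8 genes in the list Rgs5 alone was called between the aorta genotypes, and the median log2 fold change of the list was 0.16. The part of these lists in the levels of Kcnj8 and Abcc9 was not tested.

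**Figure D5:**
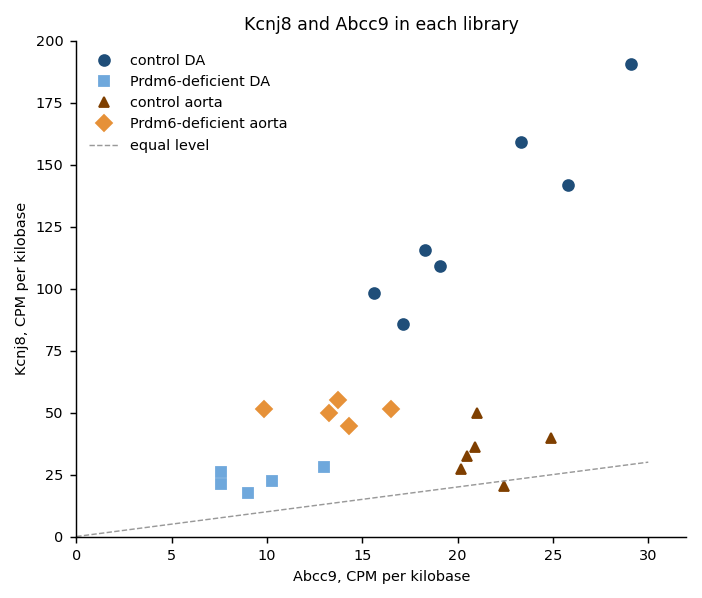
Kcnj8 against Abcc9 in each library, both in CPM per kilobase of exon; each point is 1 library and the dashed line marks equal levels. Control DA libraries lie highest for Kcnj8 and overlap with control aorta for Abcc9. The 5 Prdm6-deficient DA libraries lie lower on both axes than the 7 control DA libraries.

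Kcnj11 and Abcc8, which form the ATP-sensitive channel of pancreatic beta cells and lie 3759 bases apart, were at far lower levels. Kcnj11 averaged 1.65 to 2.0 CPM and Abcc8 2.74 to 5.13 CPM over the 4 groups, and neither was called in a comparison. Per kilobase, Kcnj8 was at least 25.3 times as high as Kcnj11 in every library.

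Kcnj15 (chr16:95257558-95300260, plus strand), which encodes the inward rectifier Kir4.2, was at 22.4, 12.1, 4.85, 17.7 and 6.0 CPM in Prdm6-deficient aorta and 25.3 to 47.9 CPM (median 45.8) in control aorta. In the DA it was at 20.6, 31.5, 21.5, 27 and 35.4 CPM in the Prdm6-deficient DA libraries and 26.8 to 49.4 CPM (median 36.1) in control DA. The aorta groups did not overlap, and Prdm6-deficient aorta replicates 3 and 5 had the lowest levels, while the DA groups overlapped. In the aorta it was 3.19-fold lower without Prdm6, a log2 fold change of -1.67 (SE 0.286, adjusted p = 3.17e-04), and -1.54 within the second series (adjusted p = 0.0148). In the DA the value was -0.40 (SE 0.266, adjusted p = 0.402). The difference between the effects, 1.27 (SE 0.383, adjusted p = 0.0503), was called only without Prdm6-deficient aorta replicate 1 (1.58, adjusted p = 0.00853), and DESeq2 called Prdm6-deficient DA above Prdm6-deficient aorta (1.12, 0.00973). Kcnj2, which encodes Kir2.1, a channel that sets the resting potential, had group means of 4.06 CPM (control DA) to 6.67 CPM (Prdm6-deficient aorta) and was not called.

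Among 2-pore channels, which pass background potassium current, Kcnk1 (chr8:125995170-126030685, plus strand; TWIK-1) was called in 4 of the 5 tests. Its promoter is shown because the gene fell in both vessels, and it holds the TEAD motif at position -32, marked in capitals (chr8:125994852-125995151, plus strand).
Kcnk1: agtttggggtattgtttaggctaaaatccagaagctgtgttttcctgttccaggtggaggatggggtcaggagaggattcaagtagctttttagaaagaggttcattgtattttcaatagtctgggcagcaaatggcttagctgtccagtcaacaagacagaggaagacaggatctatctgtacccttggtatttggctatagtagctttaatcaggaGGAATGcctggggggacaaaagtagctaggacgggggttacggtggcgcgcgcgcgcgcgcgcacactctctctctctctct

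Kcnk1 was at 3.24, 4.77, 8.38, 5.52 and 5.84 CPM in the Prdm6-deficient DA libraries and 22 to 48.1 CPM (median 32.8) in control DA. In aorta, Kcnk1 was at 5.14, 3.8, 4.2, 4.33 and 4.83 CPM in Prdm6-deficient aorta and 7.67 to 12.8 CPM (median 10.6) in control aorta. Neither tissue showed overlap between genotypes, and control DA lay above control aorta in every library. As a log2 fold change this was 1.70 (SE 0.201, adjusted p = 7.41e-07) for control DA against control aorta, -2.59 (SE 0.226, adjusted p = 6.48e-09) for the loss of Prdm6 in the DA and -1.21 (SE 0.222, adjusted p = 7.57e-04) for that in the aorta. In the DA it was -2.61 in the first and -2.64 in the second series, and in the aorta -1.20 in the second. Prdm6-deficient DA held 16.5% and Prdm6-deficient aorta 43.3% of the control level. The difference between the effects was -1.38 (SE 0.303, adjusted p = 0.00496). It was not called without Prdm6-deficient DA replicate 1 (adjusted p = 0.01), 2 (0.0126) or 6 (0.0101), Prdm6-deficient aorta replicate 1 (0.0125) or 5 (0.0117), control DA replicate 5 (0.0105) or control aorta replicate 2 (0.0106), 3 (0.0102) or 6 (0.0104), nor without the pooled libraries (0.0331), with the animal as a block (0.0995) or within the second series (0.0297).

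Kcnk3 (chr5:30588170-30625271, plus strand), which encodes TASK-1, an acid-sensitive background channel of pulmonary artery muscle, was at 10.9, 14.4, 20.4, 30.2 and 16.5 CPM in the Prdm6-deficient DA libraries and 31.6 to 74.7 CPM (median 54.9) in control DA. Aorta levels were 14.2, 34.3, 14.1, 22.3 and 10.3 CPM in Prdm6-deficient aorta and 7.75 to 15.3 CPM (median 13.7) in control aorta. The DA genotypes did not overlap, the aorta genotypes did, and Prdm6-deficient aorta replicate 2 had the highest value of its group. Control DA exceeded control aorta 4.25-fold, with a log2 fold change of 2.09 (SE 0.26, adjusted p = 1.73e-06). Loss of Prdm6 in the DA gave -1.52 (SE 0.271, adjusted p = 2.49e-04), with -1.26 in the first and -1.83 in the second series, and the adjusted p was 0.0111 without the pooled libraries. In the aorta the value was 0.61 (SE 0.271, adjusted p = 0.278), and the effects differed by -2.13 (SE 0.38, adjusted p = 6.37e-04), which was not called with the animal as a block (0.0247) or within the second series (0.012). Kcnk6, which encodes TWIK-2, was not called, with 17.1 ± 4.55, 17.2 ± 2.32, 23.6 ± 2.76 and 22.3 ± 3.42 CPM in control DA, Prdm6-deficient DA, control aorta and Prdm6-deficient aorta. Kcnk2, which encodes the stretch-sensitive TREK-1, stayed under 1 CPM on average in every group. Genes of the smooth muscle and melanocyte lists were, as Kcnk1 and Kcnk3 were, higher in the DA of controls and lower in Prdm6-deficient DA, and the part of these cells was not tested.

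Among genes of calcium-activated channels, Kcnmb1 (chr11:33963013-33973641, plus strand), whose product raises the calcium sensitivity of the large-conductance channel in smooth muscle, was at 44.3, 45.2, 46.7, 54.7 and 43.1 CPM in the Prdm6-deficient DA libraries and 47.1 to 93.8 CPM (median 63.8) in control DA. The aorta had 41.6, 42.4, 28.7, 37.8 and 45.1 CPM in Prdm6-deficient aorta and 21.5 to 39.1 CPM (median 26) in control aorta. All control DA libraries lay above all control aorta libraries, and the genotypes overlapped in both tissues. The log2 fold change of control DA against control aorta was 1.24 (SE 0.153, adjusted p = 1.54e-06). Without Prdm6 it was -0.52 (SE 0.159, adjusted p = 0.0284) in the DA, with -0.32 in the first and -0.67 in the second series, and 0.45 (SE 0.163, adjusted p = 0.128) in the aorta, neither of which was called. The value in the DA passed the thresholds without control DA replicate 2 (-0.60, adjusted p = 0.00997). The difference between the effects, -0.98 (SE 0.227, adjusted p = 0.00836), was called. With 1 library left out at a time it kept its call in 7 of 23 fits, those without Prdm6-deficient DA replicate 6, Prdm6-deficient aorta replicate 3, control DA replicate 1, 2 or 4 or control aorta replicate 2 or 5. In the other fits the adjusted p was above 0.01 and reached 0.0213, without Prdm6-deficient aorta replicate 5, and it was 0.0416 without the pooled libraries, 0.0104 with the series as covariate, 0.0373 with the animal as a block and 0.0324 within the second series. As with Kcnmb1, 7 of the 8 smooth muscle genes were higher in control DA than in the control aorta and 6 were called in the difference between the effects, and their part was not tested. Kcnmb1 lies inside Kcnip1, on the opposite strand, which averaged 0.432 to 0.597 CPM over the groups, and the default settings stated for RSEM do not use the strand.

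Kcnma1 (chr14:23289431-24014491, minus strand), the pore that Kcnmb1 modifies, was at 3.24, 1.48, 1.37, 0.575 and 5.45 CPM in the Prdm6-deficient DA libraries and 4.75 to 10.8 CPM (median 5.95) in control DA. In aorta, Kcnma1 was at 0.159, 0.458, 0.139, 0.791 and 0.829 CPM in Prdm6-deficient aorta and 1.54 to 2.69 CPM (median 2.32) in control aorta. The aorta genotypes did not overlap, nor did control DA and control aorta, while in the DA replicate 7 without Prdm6 reached into the control range. Its log2 fold change without Prdm6 was -2.20 (SE 0.521, adjusted p = 0.00946) in the aorta, where it was called, and -1.51 (SE 0.477, adjusted p = 0.037) in the DA, where it was not. For the aorta the call held in 6 of 23 fits with 1 library left out, those without Prdm6-deficient DA replicate 2, 5, 6 or 7, Prdm6-deficient aorta replicate 5 or control DA replicate 6. In the other 17 the adjusted p was above 0.01 and reached 0.0346, without Prdm6-deficient aorta replicate 3. That call was also lost with the series as covariate (0.0148), with no filter on low counts (0.0135), with only the aorta libraries in the fit (0.0104), with the replicate block (0.015), without the control animal with Cre (0.0228) and within the second series (0.0688). In the DA the gene was called without Prdm6-deficient DA replicate 7 (-2.05, adjusted p = 0.00676) and by DESeq2 (0.00689). Control DA against control aorta gave 1.64 (SE 0.449, adjusted p = 0.0147), with a call without Prdm6-deficient DA replicate 6 (0.00794) or 7 (0.00844), and it was called by DESeq2 (0.00103), with only the control libraries in the fit (9.10e-04) and within the second series (0.00559). DESeq2 also called Prdm6-deficient DA above Prdm6-deficient aorta (2.36, 8.32e-04). Kcnmb4, another beta subunit, averaged 14.2 ± 2.31, 11.3 ± 2.02, 9.14 ± 2.45 and 6.56 ± 2.92 CPM in the 4 groups, in the order used for Kcnk6. Neither it nor Kcnn3 and Kcnn4, which encode small- and intermediate-conductance channels, was called. Kcnn4 averaged 5.99 ± 4.01 CPM in Prdm6-deficient DA and 2.6 ± 2.96 CPM in control DA (log2 fold change 1.20 (SE 0.72, adjusted p = 0.338)).

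Kcna5 (chr6:126532551-126535412, minus strand), which encodes the delayed rectifier Kv1.5, one of the channels named for oxygen sensing in the DA, was the voltage-gated pore gene with the highest level per kilobase in all 4 groups. Its promoter is shown because the gene rose in both vessels, and the TEAD motif on the opposite strand, at position -128, is in capitals (chr6:126535506-126535805, minus strand).
Kcna5: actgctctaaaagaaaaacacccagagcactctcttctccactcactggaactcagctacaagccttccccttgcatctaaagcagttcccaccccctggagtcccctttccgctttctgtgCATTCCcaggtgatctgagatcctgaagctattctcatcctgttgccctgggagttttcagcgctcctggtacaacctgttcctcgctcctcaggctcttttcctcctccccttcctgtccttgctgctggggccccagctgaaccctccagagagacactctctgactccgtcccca

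Kcna5 was at 42.1, 57, 59, 75.7 and 61.8 CPM in the Prdm6-deficient DA libraries and 9.95 to 30.7 CPM (median 19.9) in control DA. Aorta levels were 75.1, 57, 57.2, 65.7 and 51.1 CPM in Prdm6-deficient aorta and 23.6 to 40.8 CPM (median 27) in control aorta. In both tissues every Prdm6-deficient library lay above every control library, and control aorta replicate 5 was the highest of the controls. The log2 fold change without Prdm6 was 1.5 (SE 0.195, adjusted p = 3.34e-06) in the DA and 1.09 (SE 0.202, adjusted p = 8.60e-04) in the aorta, 2.83-fold and 2.12-fold higher. Within the series it was 1.27 and 1.60 in the DA and, in the second, 1.03 in the aorta. The difference between these effects was 0.42 (SE 0.282, adjusted p = 0.545) and was not called, nor was control DA against control aorta (-0.47 (SE 0.188, adjusted p = 0.123)).

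Kcna2 (chr3:107101146-107115005, plus strand), a Kv1 pore that can assemble with Kv1.5, was at 14.8, 4.09, 8.02, 10.8 and 7.56 CPM in the Prdm6-deficient DA libraries and 0.667 to 6.57 CPM (median 2.53) in control DA. Replicate 1 without Prdm6 was the highest, and the groups overlapped. Its log2 fold change of 1.65 (SE 0.397, adjusted p = 0.00529) was called, with 2.80 in the first and 0.77 in the second series. The call was lost without Prdm6-deficient DA replicate 1 (adjusted p = 0.0289) or 6 (0.0158), control DA replicate 1 (0.0118), 2 (0.0103), 5 (0.0133) or 7 (0.0109), the pooled libraries (0.0207) or the control animal with Cre (0.0128), with only the DA libraries in the fit (0.0418) and with the series as covariate (0.0178). In the aorta it was 0.55 (SE 0.412, adjusted p = 0.683).

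Kcns3 (chr12:11090202-11151056, minus strand), a silent subunit that modifies other voltage-gated channels, was at 14.5, 7.95, 12.3, 13.3 and 15.9 CPM in the Prdm6-deficient DA libraries and 1.4 to 7.08 CPM (median 3.13) in control DA. The aorta had 12.6, 8.61, 13, 10.8 and 11 CPM in Prdm6-deficient aorta and 6.92 to 9.5 CPM (median 8.71) in control aorta. The DA genotypes did not overlap, and control DA replicate 6, the highest of the controls, was the library that reached into the range of control aorta. Without Prdm6 the log2 fold change in the DA was 1.95 (SE 0.27, adjusted p = 8.41e-06), with 2.32 in the first and 1.74 in the second series. It was 0.41 (SE 0.275, adjusted p = 0.609) in the aorta, and -1.34 (SE 0.259, adjusted p = 5.56e-04) for control DA against control aorta, a call lost within the second series (0.0674) and with the animal as a block (0.0224). The effects differed by 1.54 (SE 0.387, adjusted p = 0.0162), which was called without Prdm6-deficient DA replicate 2 (0.00971) or control DA replicate 6 (1.84, 4.25e-04) and by DESeq2 (0.00217).

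Kcnc2 (chr10:112271121-112467024, plus strand), a Kv3 pore of fast-firing neurons, was low. It was at 2.93, 2.95, 6.28, 4.71 and 1.28 CPM in the Prdm6-deficient DA libraries and 0 to 1.57 CPM (median 0.745) in control DA, and at 8.05, 5.54, 3.88, 3.35 and 7.12 CPM in Prdm6-deficient aorta and 0.719 to 1.46 CPM (median 0.93) in control aorta. The aorta genotypes did not overlap, and in the DA replicate 7 without Prdm6 lay within the control range. Its log2 fold change was 2.37 (SE 0.573, adjusted p = 0.00554) in the DA, where it was called, and 2.47 (SE 0.599, adjusted p = 0.0112) in the aorta, where it was not. Within the series the value in the DA was 2.45 and 1.71. The call in the DA was lost without Prdm6-deficient DA replicate 5 (adjusted p = 0.025) or 6 (0.0162), control DA replicate 5 (0.0103) or 7 (0.0127) or the pooled libraries (0.0143), with only the DA libraries in the fit (0.0836), with the series as covariate (0.0133) and with the replicate block (0.0158). In the aorta it was called without Prdm6-deficient DA replicate 7 (0.00933) or control DA replicate 2 (0.00949), 3 (0.00535), 4 (0.00176) or 6 (0.00981), by DESeq2 (7.20e-05), with only the aorta libraries in the fit (7.60e-05) and within the second series (2.59e-04). Elavl4 of the neuron list and Fabp7 of the glial list were also higher in Prdm6-deficient DA. In the DA the sums of both lists lay higher without Prdm6 but for 1 library each, Prdm6-deficient DA replicate 7 for neurons (19.1 CPM) and control DA replicate 7 for glia, and in the aorta the neuron sums did not overlap. The part of these cells in the levels of Kcna2 and Kcnc2 was not tested.

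Kcnh2, which encodes the hERG channel, was the pore gene next to Kcna5 in level and was not called, with 32.8 ± 7.7, 28.4 ± 7.4, 46.7 ± 11.9 and 46.4 ± 5.12 CPM in the 4 groups. Of the Kv7 genes, Kcnq1 and Kcnq5, whose channels hold vascular muscle relaxed, were not called either. Kcnq1 averaged 0.758 to 1.16 CPM, and reads of its antisense RNA Kcnq1ot1 (6.42 to 10.9 CPM) may not be told apart from it, as the strand was not used.

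Kcnab1 (chr3:65109384-65378223, plus strand), a cytoplasmic beta subunit that speeds the inactivation of Kv1 channels, was at 40.3, 44.5, 51.4, 45.1 and 51.9 CPM in the Prdm6-deficient DA libraries and 2.56 to 27.1 CPM (median 7.25) in control DA. Aorta levels were 97.5, 97.5, 73.7, 104 and 83.5 CPM in Prdm6-deficient aorta and 51.6 to 72.6 CPM (median 62.5) in control aorta. The 4 groups did not overlap with each other in any of the 4 pairs compared. By mean level the order from lowest to highest was control DA, Prdm6-deficient DA, control aorta and Prdm6-deficient aorta. Prdm6-deficient DA, at up to 51.9 CPM, overlapped with control aorta, from 51.6 CPM, a pair that was not compared. Log2 fold changes were -2.40 (SE 0.325, adjusted p = 6.23e-06) for control DA against control aorta and 1.99 (SE 0.334, adjusted p = 1.15e-04) for the loss of Prdm6 in the DA, with 2.30 in the first and 1.91 in the second series. In the aorta it was 0.56 (SE 0.333, adjusted p = 0.534) and not called, but was called with only the aorta libraries in the fit (2.32e-03) and within the second series (0.00346). Prdm6-deficient DA against Prdm6-deficient aorta gave -0.97 (SE 0.353, adjusted p = 0.268), called with only these 2 groups in the fit (-0.96, 1.95e-04) and within the second series (0.00556). The effects differed by 1.43 (SE 0.474, adjusted p = 0.0842), which was called without control DA replicate 6 (1.79, 0.00754).

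Kcnip3 (chr2:127456498-127522094, minus strand), a calcium-binding partner of Kv4 channels also known as the repressor DREAM, was at 16.1, 12, 28.4, 14.7 and 20 CPM in the Prdm6-deficient DA libraries and 2.71 to 7.89 CPM (median 4.69) in control DA. The aorta had 12.4, 8.75, 12.3, 9.63 and 9.51 CPM in Prdm6-deficient aorta and 3.42 to 7.42 CPM (median 5.3) in control aorta. Genotypes did not overlap in either tissue. Its log2 fold change was 1.72 (SE 0.254, adjusted p = 2.16e-05) in the DA, with 2.21 in the first and 1.40 in the second series, and 0.94 (SE 0.265, adjusted p = 0.0336) in the aorta. The latter was not called with all libraries and was called with only the aorta libraries in the fit (0.00567). The difference between the effects was 0.78 (SE 0.368, adjusted p = 0.288).

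Kcnip4 (chr5:48389502-49524907, minus strand), another Kv4 partner, was at 0 to 4.77 CPM (median 3.17) in control DA and 12.5 to 22.7 CPM (median 18.5) in control aorta. No control library of one tissue overlapped with the other, and the log2 fold change was -2.68 (SE 0.4, adjusted p = 2.31e-05), with -2.74 in the second series (adjusted p = 0.0113). Loss of Prdm6 gave 0.91 (SE 0.41, adjusted p = 0.171) in the DA and -0.28 (SE 0.411, adjusted p = 0.91) in the aorta. Prdm6-deficient DA, at 3.93, 7.33, 6.51, 4.14 and 4.81 CPM, stayed below Prdm6-deficient aorta, at 15.7, 17.3, 13.8, 13.4 and 15 CPM. That difference, -1.49 (SE 0.442, adjusted p = 0.13), was called without control DA replicate 6 (0.00149) and with only these 2 groups in the fit (0.00194). The gene 5730480H06Rik overlaps Kcnip4 on the opposite strand, with group means of 12.9 CPM (Prdm6-deficient DA) to 14.3 CPM (Prdm6-deficient aorta), and reads of the pair may not be told apart.

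Kcne4, a small membrane subunit that damps Kv channels, was the auxiliary gene with the highest level, at 78.8, 70.7, 61.8, 62.1 and 65.7 CPM in the Prdm6-deficient DA libraries and 77.1 to 112 CPM (median 87) in control DA. Its log2 fold change in the DA was -0.45 (SE 0.109, adjusted p = 0.0061), short of the fold threshold, and it was called without Prdm6-deficient DA replicate 1 (-0.51, adjusted p = 0.00417) and without the pooled libraries (-0.55, 0.0074). Kcne1l, of the same family, had 15.7 ± 2.05, 20.9 ± 2.13, 20.4 ± 3.01 and 27.9 ± 1.83 CPM in the 4 groups and was not called. In the aorta its value of 0.45 (SE 0.119, adjusted p = 0.0217) was called without control aorta replicate 6 (0.54, 0.00485).

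The list of 21 potassium channel genes of vascular smooth muscle, all tested, summed to 372 to 460.4 CPM in Prdm6-deficient DA and 618 to 1011 CPM in control DA. The mean sums were 418 and 782 CPM. Kcnj8, at 58.9 and 328 CPM, and Abcc9, at 79.6 and 177 CPM, held much of this difference, so it does not describe the list as a whole. Between the control tissues 4 of the 21 were called higher in the DA (among them Kcnj8, Kcnk3 and Kcnmb1; 19.05%, against 3.16% of all genes tested) and 1 lower (Kcnab1; 4.76%, against 2.19%). Of the 21, 3 rose without Prdm6 in the DA (Kcna2, Kcna5 and Kcnab1; 14.3%, against 2.61%) and 3 fell (Abcc9, Kcnj8 and Kcnk3; 14.3%, against 2.82%), and in the aorta 1 rose (Kcna5; 4.76%, against 1.63%) and 2 fell (Abcc9 and Kcnma1; 9.52%, against 0.826%). Their median log2 fold change was -0.23 for the loss of Prdm6 in the DA and 0.16 for that in the aorta. This list and the choice of members overlap by design.

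Other genes of membrane excitability and calcium entry were called as well. Of 40 genes of calcium, chloride, cation and sodium transport, 38 were tested, and their sum was 1544 to 1644 CPM in Prdm6-deficient DA and 1561 to 1904 CPM in control DA. In the DA 1 of them rose without Prdm6 (2.63%, against 2.61% of all genes tested), Atp1b1, a sodium pump subunit, by a log2 fold change of 0.81 (SE 0.201, adjusted p = 0.00716). There 3 fell (7.89%, against 2.82%): Atp2a2, the calcium pump of the sarcoplasmic reticulum (-0.74 (SE 0.119, adjusted p = 6.35e-05)), Slc8a1, the sodium-calcium exchanger (-0.55 (SE 0.131, adjusted p = 0.00498)), and Trpv2, a cation channel (-1.44 (SE 0.209, adjusted p = 1.69e-05)). In the aorta 2 rose (5.26%, against 1.63%): Cacna2d1, a calcium channel subunit (0.63 (SE 0.123, adjusted p = 0.00152)), and Itpr1, the inositol trisphosphate receptor (0.51 (SE 0.113, adjusted p = 0.00559)). Between controls, 3 were higher in the DA (Atp2a2, Itpr1 and Trpv2; 7.89%, against 3.16%). The effect on Trpv2 differed between the vessels by -1.74 (SE 0.293, adjusted p = 3.27e-04). Medians of the 38 were -0.06 for the loss of Prdm6 in the DA and 0.00 for that in the aorta.

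Of the 54 tested members, 39 passed the thresholds in no comparison. For 25 of these, beyond the genes above, group means ran from 0.0984 to 12.4 CPM, and the smallest adjusted p was 0.027. Kcnd2, 1 of the 25 and singled out after its values were seen, averaged 3.89 CPM in Prdm6-deficient aorta and 0.358 CPM in control aorta. Its lowest Prdm6-deficient aorta library, at 2.17 CPM, lay above its highest control aorta library, at 0.959 CPM, without a call with all libraries. The 42 members that were not tested had at most 134 counts in any library. Of these, 11 had 3 counts or fewer in every library, 7 of them 0 counts, so that differences in them were not detectable at this depth.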

How the data were processed

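The labels list 24 samples of DA and ascending aorta, and the count table holds 23 libraries. Prdm6-deficient DA replicate 4 has no column in it. The authors aligned the reads to mm10 with STAR and deposited the expected count of each gene, estimated by RSEM with a GENCODE annotation and not normalized; both were run with default settings, which for RSEM do not use the strand, and their versions are not stated. Columns were matched to samples by name, with 0 left unmatched. Expected counts were rounded to whole numbers. Symbols, biotypes and coordinates came from GENCODE on GRCm38.

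Tests used edgeR 4.0.16 in R 4.3.3 (filterByExpr, TMM, 1 mean per group, quasi-likelihood test), adjusted over 16463 genes by Benjamini-Hochberg. A gene was called at an adjusted p below 0.01 with a log2 fold change beyond 0.5. The SE is the log2 fold change divided by the square root of F. DESeq2 1.42.0 was an alternative, and limma 3.58.1 was loaded with edgeR. Tables and plots used Python 3.11.15, pandas 2.3.3 and matplotlib 3.10.9. Other alternatives were another scaling, no filter, only the groups compared, series as covariate, a replicate block, the animal as a block over control animals, and leaving out libraries. The animal as a block over both genotypes, with pooled embryos taken as 1 animal, was chosen after seeing the data.

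Genes followed singly (29) are the members called in a comparison, those of the vascular list and the 3 most abundant of each class; some genes are not reported here. The members and the lists (smooth muscle, pericyte, endothelial, macrophage, neuron, Schwann cell and glia, melanocyte, cardiomyocyte, fibroblast, chondrocyte, erythroid, brown fat, membrane excitability, vascular potassium channels) were chosen with earlier results of these data known.

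On simulated data, where genes with low counts were among those changed, the procedure missed the first limit set for the recovery of large changes. It was then judged by its false calls and its error. DA and aorta libraries pair by the animal number in the labels. The libraries of 1 animal were the closest match in 3 of 8 pairs, with correlations of deviations from the group mean, across genes, from -0.0215 to 0.0804. Replicate numbers pair nothing in the labels, and gave -0.0543 to 0.133.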

Additional observations from a re-analysis of the deposited data

Results flagged for a closer look

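In 5 of 116 groups of values examined (4.31%), 1 library stood far from the others of its group, by Dixon's critical value, which is set so that chance passes it in about 1 in 20 groups. Kcna5 was at 40.8 CPM in control aorta replicate 5, where the other control aorta libraries had 23.6 to 28.8 CPM. Kcne1l was at 26.4 CPM in control aorta replicate 6, against 18.2 to 20.0 CPM in the others. Kcnj2 was at 8.16 CPM in Prdm6-deficient DA replicate 6, against 3.24 to 4.32 CPM. Kcnn3 was at 17.7 CPM in control DA replicate 3, against 6.02 to 10.6 CPM. Kcns3 was at 7.08 CPM in control DA replicate 6, against 1.40 to 3.81 CPM.

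The effect of Prdm6 deficiency differed between DA and aorta, by the edgeR test of the difference itself, for 4 members. On the log2 scale the difference was -3.03 for Kcnj8, -2.13 for Kcnk3, -1.38 for Kcnk1 and -0.98 for Kcnmb1. With the animal as a block Kcnj8 kept this call and the others did not. What lies behind these differences was not tested.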

How the results depend on the processing

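For the 28 called single-gene values, 903 alternative values were computed: 792 stayed called, 111 kept their direction without a call, and 0 turned direction. Calls held under every alternative for 10 of the 28. Of 117 uncalled values, 18 were called under some alternative. Counts of called genes are given for all genes and then for potassium channel genes.

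With all libraries, control DA against control aorta gave 882 and 8, Prdm6-deficient DA against control DA 894 and 10, Prdm6-deficient aorta against control aorta 404 and 5, Prdm6-deficient DA against Prdm6-deficient aorta 44 and 1, and the difference of effects 425 and 4. Leaving out 1 library at a time gave, in that order, 775 to 963 and 8 to 9, 784 to 948 and 8 to 12, 325 to 441 and 3 to 6, 22 to 58 and 0 to 2, and 359 to 490 and 2 to 5. The count of 44 became 28 and 25 without Prdm6-deficient DA replicate 1 or 2, and 25, 22, 28 and 29 without Prdm6-deficient aorta replicate 1, 2, 4 or 5.

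With the replicate block the counts were 826 and 8, 780 and 10, 358 and 3, 16 and 0, and 335 and 4. Within the second series, control DA against control aorta gave 550 for all genes. Prdm6-deficient DA against control DA gave 61 and 1 within the first and 147 and 4 within the second series. With only the groups compared, Prdm6-deficient aorta against control aorta gave 702 and 8. Prdm6-deficient DA against Prdm6-deficient aorta gave 146 and 3 with DESeq2, 83 and 3 with only these groups, 15 and 0 without the pooled libraries, 2 and 0 within the first series and 88 and 3 within the second. The difference of effects gave 639 for all genes with DESeq2, 166 and 1 within the second series, and 2 potassium channel genes without the pooled libraries. With the animal as a block over both genotypes, chosen after seeing the data, Prdm6-deficient DA against Prdm6-deficient aorta gave 11 and 0, and the difference of effects 238 and 1. Fits within a series or without libraries hold fewer samples; otherwise the cause was not tested.

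Not run were fits of the first series where control aorta has 1 library, and fits of only the groups compared for the difference of effects, which uses all groups. Genes with few counts, such as Kcnc2 and Kcnma1, carry wide errors here, and members under 3 counts cannot be compared at this depth. RSEM shares out reads that fit several genes, and floors cover counting error only.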
